A study of Mus musculus with 2 samples.

Results

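The genes described here are 9 mouse genes of the antioxidant programme under the transcription factor NRF2 and of glutathione synthesis, Hmox1, Nqo1, Gclc, Gclm, Slc7a11, Gsr, Txnrd1, Srxn1 and Prdx1. They were chosen by symbol, and all 9 have a row among the 27998 gene rows of both count matrices. The NaIO3 library was made from C57BL/6J mice given sodium iodate, an oxidant that injures the retinal pigment epithelium (RPE), as 20 mg/kg into a vein, with the eyes of 6 mice pooled after 7 days. The PBS library came from C57BL/6J mice given the same volume of the phosphate-buffered saline used as the solvent, again with the eyes of 6 mice pooled after 7 days. Neither label gives the age or sex of the mice. Brown hexagonal cells of the RPE and choroid were picked after dispase digestion and run on the 10x Genomics platform, so the mix of cells also depends on that dissection. With 1 library per group there is no replicate check on any difference below, no test was made, and every interval is a 95% interval that covers counting error only.

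NRF2 is held at a low level in resting cells by KEAP1, which presents it for degradation, and oxidants or electrophiles release it to bind antioxidant response elements with a small MAF protein. Its targets supply glutathione, reduce quinones, degrade haem and recycle oxidised thioredoxin and peroxiredoxin. The RPE faces light, high oxygen and the daily uptake of oxidised outer segments, and is known for strong antioxidant defence.

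After filtering, 3820 NaIO3 cells and 4233 PBS cells were kept, with 51168520 UMIs (unique molecular identifiers, 1 per captured transcript) in all NaIO3 barcodes and 51055592 in all PBS barcodes. Cells were assigned to classes by the summed share of marker genes in each cell. The RPE gate held 2259 NaIO3 cells (59.1% of cells, interval 57.6 to 60.7) and 3483 PBS cells (82.3%, interval 81.1 to 83.4), with 27186787 and 43074568 UMIs in NaIO3 and PBS. Since the gate used the summed share of the 12 RPE markers, their level in the gated cells is no separate check of the label. Of the 12, 11 were far higher in the gated cells than in other cells of both libraries, and Best1 was lower in the gated cells, at 0.478 CPM (a gene's count scaled to a fixed total of summed counts) in NaIO3 RPE cells and 0.395 CPM in PBS RPE cells, beside 1.31 CPM and 5.37 CPM in the other cells of NaIO3 and PBS. NaIO3 RPE cells had a lower summed level of RPE markers than PBS RPE cells (82809 against 118961 CPM), a higher median mitochondrial share (11.8% against 8.31%) and a lower median depth (9463 against 11333 UMIs). Most of that sum, and most of its difference, was Ttr, at 59854 CPM in NaIO3 and 93576 CPM in PBS. Rpe65, Lrat, Rgr, Rdh5, Slc6a20a, Ermn and Rrh were also lower in NaIO3, while Rlbp1, Stra6, Slc16a8 and Best1 were not. The 12 macrophage markers summed to 1772 CPM in NaIO3 RPE cells and 226 CPM in PBS RPE cells, and 24 barcodes occurred in both libraries. In NaIO3 and PBS, the other gates held 466 and 103 macrophages, 683 and 76 surface epithelial cells, 35 and 4 Müller-like cells, 29 and 192 fibroblasts, 24 and 62 rods, 11 and 34 endothelial cells, and 2 and 66 mural cells. A further gate on Fbln2, Cthrc1, Cdkn2a and Cdkn2b, chosen after values were seen and called matrix-gene cells here, held 205 NaIO3 cells and 5 PBS cells. Fibroblast markers summed to 2246 CPM in these NaIO3 cells and to 53742 CPM in these PBS cells, so the gated cells of the libraries were not alike.

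RefSeq promoter windows of build GRCm38.p6, from 250 bases before to 50 bases after the gene start, were at hand for 6 of the 9 genes, Nqo1, Gclm, Slc7a11, Txnrd1, Srxn1 and Prdx1. The core letters of the antioxidant response element, TGACNNNGC on either strand, were found in 4 of the 8 windows of these genes, 1 each for Gclm, Txnrd1, Srxn1 and Prdx1, while 12.4% of all 32851 windows of 300 bases held them. The stretches around these matches are printed as matches to the core letters only, and binding of NRF2 to them was not tested. They are written 5′ to 3′ on the strand of the gene with the core in capitals, and in all of them the core reads on the opposite strand, so that the capitals show its reverse complement. In the Gclm, Txnrd1 and Prdx1 windows the match begins 134, 92 and 133 bases before the start, and the Txnrd1 window is the second of 3 listed for that gene. In Prdx1 the core also overlaps an AP-1 site, TGANTCA, a motif held by 7.81% of all windows. The Srxn1 match begins 28 bases after the start and is given with short flanks.
Gclm, plus strand, chr3:122245393-122245461: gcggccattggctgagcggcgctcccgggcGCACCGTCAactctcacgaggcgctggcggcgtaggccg
Txnrd1, plus strand, chr10:82859084-82859152: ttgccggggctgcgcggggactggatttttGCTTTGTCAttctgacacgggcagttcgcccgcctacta
Srxn1, plus strand, chr2:152105542-152105570: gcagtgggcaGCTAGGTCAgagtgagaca
Prdx1, plus strand, chr4:116685436-116685504: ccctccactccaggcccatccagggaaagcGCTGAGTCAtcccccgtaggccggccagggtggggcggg

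In RPE cells the genes did not move together. Hmox1, which encodes haem oxygenase 1, was 3.40-fold and Gsr, which encodes glutathione reductase, 1.83-fold higher in NaIO3 than in PBS. Nqo1, Gclc, Srxn1 and Txnrd1 had ratios between 1.22 and 1.37, and Gclm and Prdx1 stood at 0.966 and 1.0. Slc7a11 was barely detected in RPE cells of either library. Of the 8 genes that reached 20 summed counts, 2 were higher by 1.5-fold or more, where 23.2% of the 14242 genes with that count were, and 0 were lower, where 6.75% of genes were. The median log2 ratio was 0.42 over the 8 genes and 0.18 over all genes, and scaling by the median ratio over genes lowers each log2 ratio by 0.16. The count of 2 of 8 is thus close to the share of all genes, and only Hmox1 passed 2-fold, as did 11.9% of genes.

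**Figure D1:**
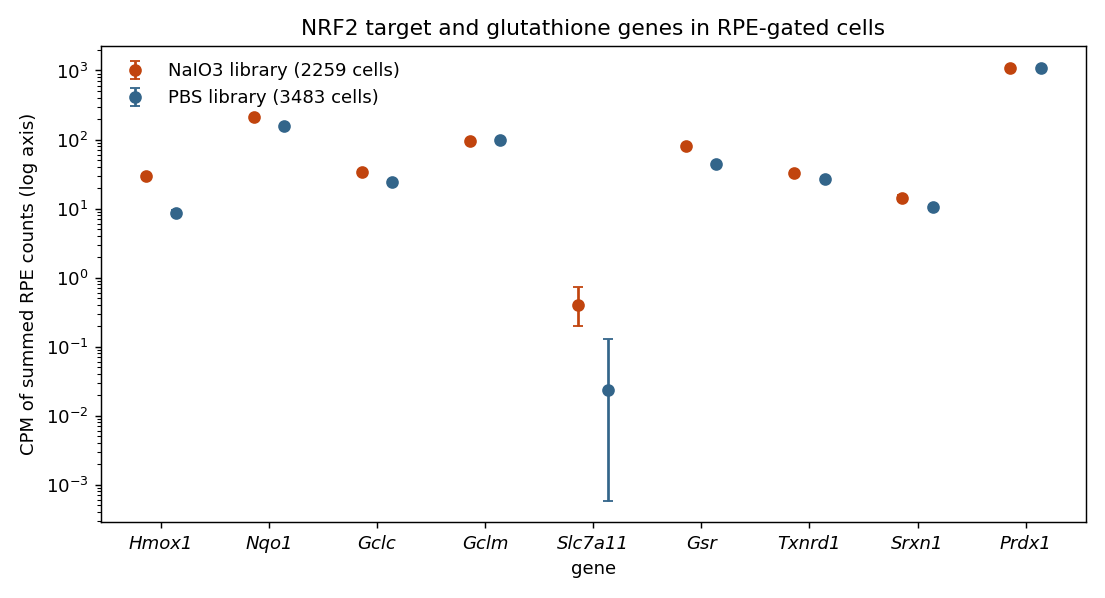
Level of the 9 genes in RPE-gated cells, in CPM of summed counts on a log axis, with exact Poisson 95% intervals that are mostly smaller than the points. The NaIO3 library is left of the PBS library for each gene, and the gap is widest for Hmox1 (29.2 against 8.61 CPM) and Gsr (80.4 against 44.0 CPM), apart from Slc7a11 with 11 and 1 UMIs.

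Hmox1 (ENSMUSG00000005413, GRCm38 chromosome 8, 75093621 to 75100589, plus strand) opens the haem ring and yields biliverdin, iron and carbon monoxide. Its level was 29.2 CPM (27.2 to 31.3, 795 UMIs) in NaIO3 RPE cells and 8.61 CPM (7.76 to 9.54, 371 UMIs) in PBS RPE cells, a ratio of 3.40 (3.0 to 3.85). Both the share of cells with a Hmox1 UMI and the number of cells with several were higher in NaIO3. A Hmox1 UMI was seen in 27.0% of NaIO3 RPE cells (609 of 2259) and in 10.1% of PBS RPE cells (351 of 3483), and with each cell thinned to 5000 UMIs in 13.8% (12.3 to 15.3) and 4.20% (3.53 to 4.95), with 139 NaIO3 and 266 PBS cells under that depth left out. Cells with 3 or more Hmox1 UMIs numbered 28 in NaIO3 and 2 in PBS. In surface epithelium, at median depths of 9080 UMIs in NaIO3 and 12773.5 UMIs in PBS, the share of cells with a Hmox1 UMI was 18.4% in NaIO3 (126 of 683) and 9.21% in PBS (7 of 76). The PBS share in RPE cells was thus no higher than in surface epithelium beyond its interval (3.78 to 18.1), while the NaIO3 share in RPE cells lay above the interval of surface epithelium (15.6 to 21.6). Rods of the PBS library had 0 of 62 cells with a Hmox1 UMI at a median of 4737 UMIs, which allows a share of cells with a UMI of up to 4.84% (3 counts of 62) and at this depth sets no limit on cells that express the gene.

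Macrophages, which clear haem from engulfed cells, had the highest Hmox1 level of all classes in both libraries, 162 CPM (152 to 172) in NaIO3 and 102 CPM (75.6 to 135) in PBS, a ratio of 1.58 (1.19 to 2.15). The RPE level was 18.1% of the macrophage level in NaIO3 and 8.43% in PBS. The summed macrophage markers in RPE cells were at 3.50% of their macrophage level in NaIO3 and 0.465% in PBS, and single markers lay between 2.07% and 47.9% in NaIO3 and between 0.133% and 18.0% in PBS (medians 3.35% and 0.219%). Hmox1 at the summed shares would be 5.67 CPM in NaIO3 and 0.475 CPM in PBS, which leaves 23.6 CPM in NaIO3 and 8.14 CPM in PBS. Matrix-gene cells of the NaIO3 library followed macrophages with 63.4 CPM (56.7 to 70.6), and Müller-like cells of that library had 52.1 CPM (29.8 to 84.6, 16 UMIs), with overlapping intervals. Surface epithelium had 18.6 CPM (15.7 to 21.8) in NaIO3 and 7.22 CPM (2.90 to 14.9) in PBS, below RPE cells in NaIO3 and overlapping with them in PBS.

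Nqo1 (ENSMUSG00000003849, chromosome 8, 107388225 to 107403206, minus strand) encodes the quinone reductase that carries out the transfer of a pair of electrons from NAD(P)H and is a classic NRF2 target. It was highest in RPE cells in both libraries, at 209 CPM (204 to 215) in NaIO3 and 159 CPM (155 to 163) in PBS, a ratio of 1.32 (1.27 to 1.37). No other class with at least 20 cells came near this level: fibroblasts followed with 106 CPM (67.3 to 159) in NaIO3 and 67.6 CPM (50.8 to 88.2) in PBS. The share of RPE cells with an Nqo1 UMI, thinned, was 63.7% in NaIO3 and 53.2% in PBS (unthinned, 84.6% and 77.8%). Macrophages had 23.1 CPM in NaIO3 and 20.9 CPM in PBS, which is 11.1% and 13.1% of the RPE level of the same library, beside summed RPE markers in macrophages at 8.02% of their RPE level in NaIO3 and 10.9% in PBS. The part of free RPE RNA in the macrophage counts was not tested. Surface epithelium stood at 37.7% of the RPE level in NaIO3 and 18.8% in PBS, above the RPE markers there (8.80% and 9.03%), and its Nqo1 level was 78.9 CPM (72.8 to 85.3) in NaIO3 and 29.9 CPM (20.0 to 43.0) in PBS, a ratio of 2.64 (1.82 to 3.97).

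**Figure D2:**
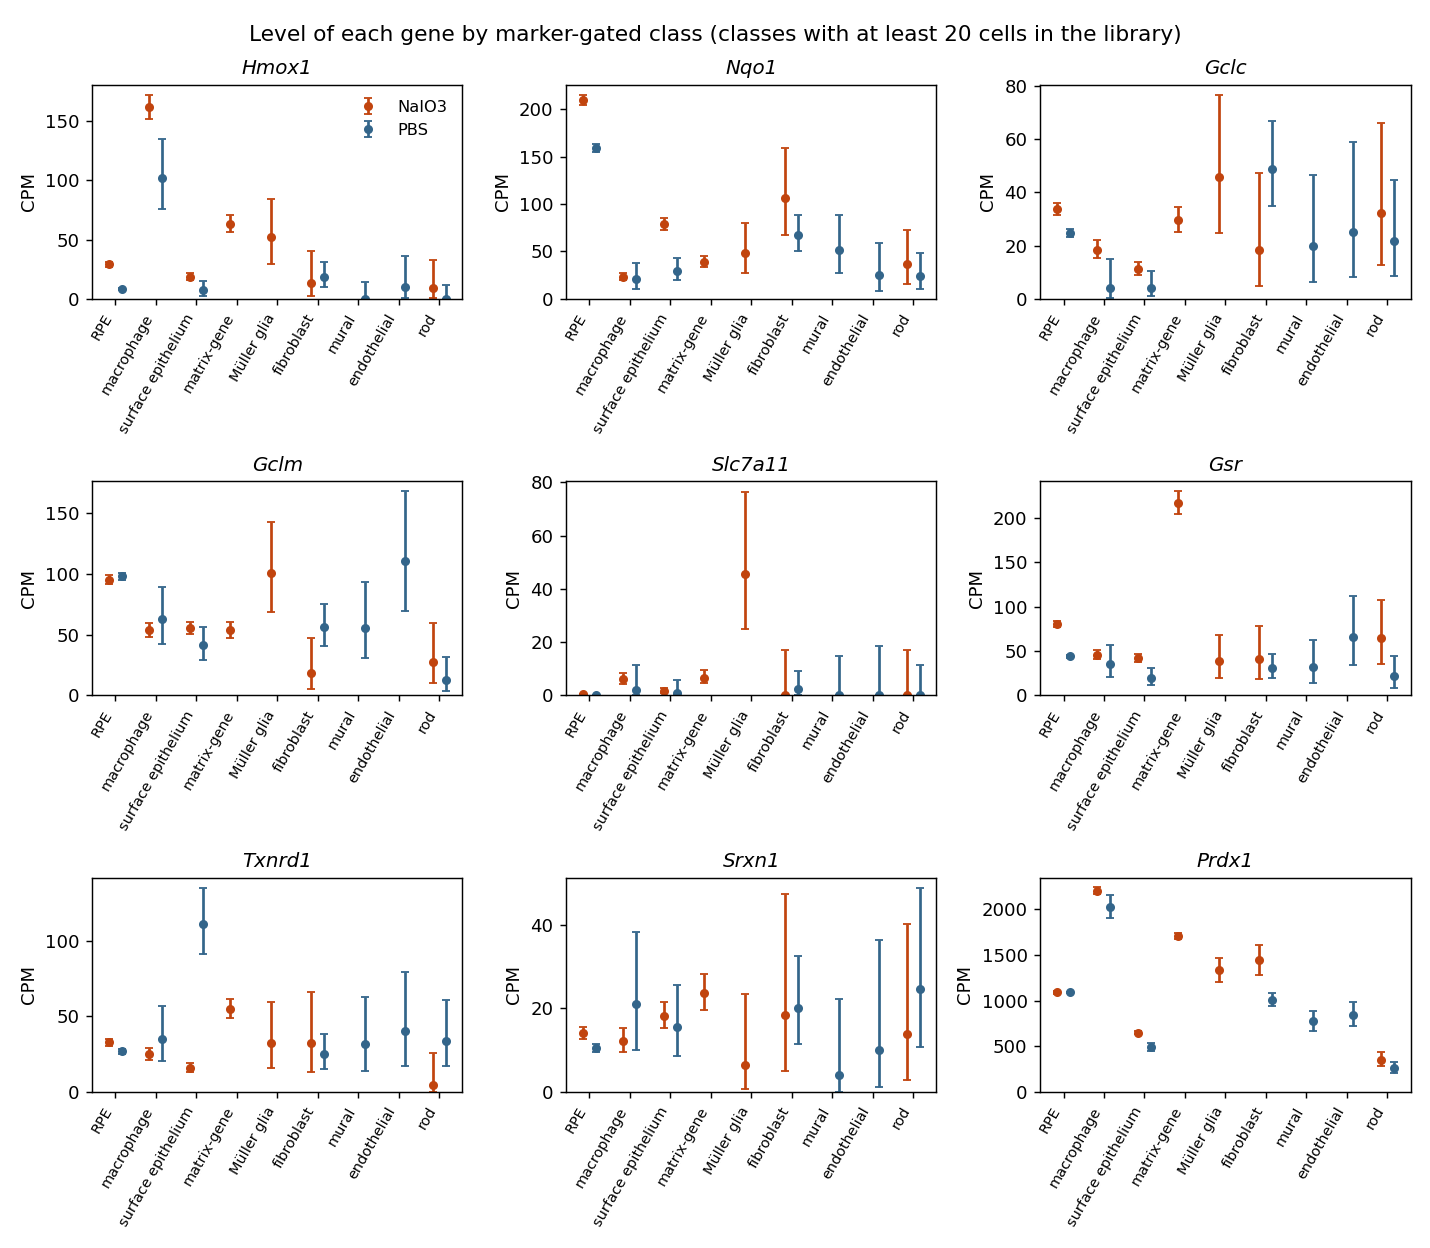
Level of each gene in CPM (linear axes from 0, with exact Poisson 95% intervals) in the classes that had at least 20 cells in a library, NaIO3 left of PBS. Nqo1 is highest in RPE cells of both libraries, Hmox1 and Prdx1 in macrophages, Gsr in the matrix-gene cells of NaIO3 (217 CPM), and Txnrd1 in the surface epithelium of PBS (111 CPM).

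The rate-limiting enzyme of glutathione synthesis joins glutamate to cysteine and is made of a catalytic subunit, encoded by Gclc, and a modifier subunit, encoded by Gclm, that raises its efficiency. In RPE cells the subunits differed. Gclc (ENSMUSG00000032350, chromosome 9, 77754535 to 77794485, plus strand) had 33.7 CPM (31.5 to 35.9) in NaIO3 and 24.6 CPM (23.2 to 26.2) in PBS, a ratio of 1.37 (1.25 to 1.49). Gclm (ENSMUSG00000028124, chromosome 3, 122245557 to 122270732, plus strand) had 95.1 CPM (91.5 to 98.8) in NaIO3 and 98.4 CPM (95.4 to 101) in PBS, a ratio of 0.966 (0.920 to 1.02) whose interval includes 1. The thinned share of RPE cells with a UMI showed the same contrast, with 16.1% in NaIO3 and 11.9% in PBS for Gclc, and 35.2% and 37.1% for Gclm. The Gclc ratio came close to 1 in some subsets, at 1.07 in the tercile of RPE cells with the lowest macrophage marker share and 1.11 in cells with 5% to 10% mitochondrial counts. That tercile was cut within each library and still held 1273 CPM of macrophage markers in NaIO3, against 76.2 CPM in PBS. Across the classes Gclc was low in macrophages (18.5 CPM in NaIO3 and 4.17 CPM, 2 UMIs, in PBS) and in surface epithelium (11.2 CPM in NaIO3 and 4.13 CPM, 4 UMIs, in PBS). Fibroblasts had 18.5 CPM of Gclc in NaIO3, from 4 UMIs, and 48.8 CPM (34.7 to 66.7) in PBS. Gclm in fibroblasts was likewise at 18.5 CPM in NaIO3, from 4 UMIs, and 56.3 CPM (41.1 to 75.4) in PBS, a ratio of 0.328 (0.0856 to 0.899) that rests on 29 NaIO3 cells. Gclm in macrophages was 53.7 CPM (48.1 to 59.8) in NaIO3 and 62.6 CPM (42.2 to 89.3) in PBS.

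Slc7a11 (ENSMUSG00000027737, chromosome 3, 49892526 to 50443614, minus strand) encodes the cystine-importing chain of the cystine and glutamate exchanger and brings in the precursor of glutathione. It gave 11 UMIs in 11 of 2259 NaIO3 RPE cells (0.405 CPM, 0.202 to 0.724) and 1 UMI in 3483 PBS RPE cells (0.0232 CPM, 0.000588 to 0.129), a ratio of 17.4 (2.53 to 750). These counts fall below the minimum of 20 and Slc7a11 is not counted as measured in RPE cells. The RPE level was 6.58% of the macrophage level in NaIO3, beside macrophage markers at 3.50%. Its highest level was in the 35 Müller-like cells of NaIO3, with 45.6 CPM (24.9 to 76.5) from 14 UMIs in 5 cells, but 8 of these UMIs came from 1 cell, and 21.8 CPM were left without it. Matrix-gene cells of NaIO3 had 6.74 CPM (4.70 to 9.38, 35 UMIs) and NaIO3 macrophages 6.15 CPM (4.35 to 8.44, 38 UMIs), while PBS macrophages had 1 UMI (2.09 CPM, 0.0528 to 11.6). Part of its longest transcript is 92.5% identical to a stretch of Tuba1b, and how reads with several matches were counted is not stated in the labels.

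Gsr (ENSMUSG00000031584, chromosome 8, 33652523 to 33698163, plus strand) encodes glutathione reductase, which returns oxidised glutathione to its reduced form at the expense of NADPH. RPE cells had 80.4 CPM (77.1 to 83.9, 2187 UMIs) in NaIO3 and 44.0 CPM (42.1 to 46.0, 1896 UMIs) in PBS, a ratio of 1.83 (1.72 to 1.94). Over 15 other settings its ratio lay between 1.59 and 1.92. A Gsr UMI was found in 33.9% (31.9 to 36.0) of thinned NaIO3 RPE cells and 19.5% (18.1 to 20.9) of thinned PBS RPE cells, and unthinned in 56.3% and 40.7%. Unthinned shares in surface epithelium were 35.1% in NaIO3 and 19.7% in PBS. The highest level of all was in matrix-gene cells of NaIO3, 217 CPM (204 to 230), where 195 of 205 cells had a UMI at a median depth of 24745 UMIs. The PBS cells past the matrix-gene gate (5 cells, 3 Gsr UMIs) were too few for a comparison, and their high fibroblast marker level set them apart from the NaIO3 cells. Surface epithelium had 42.0 CPM (37.6 to 46.8) in NaIO3 and 19.6 CPM (11.8 to 30.6) in PBS, a ratio of 2.14 (1.35 to 3.60), and macrophages 46.0 CPM (40.8 to 51.6) in NaIO3 and 35.4 CPM (20.6 to 56.8) in PBS, with overlapping intervals.

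Txnrd1, Srxn1 and Prdx1 belong to the thioredoxin arm. Txnrd1 (ENSMUSG00000020250, chromosome 10, 82833951 to 82897712, plus strand), the cytosolic thioredoxin reductase, had 32.8 CPM (30.7 to 35.1) in NaIO3 and 26.9 CPM (25.4 to 28.5) in PBS, a ratio of 1.22 (1.12 to 1.33). Srxn1 (ENSMUSG00000032802, chromosome 2, 152105516 to 152111376, plus strand), sulfiredoxin, which rescues over-oxidised peroxiredoxins, had 14.1 CPM (12.7 to 15.5) in NaIO3 and 10.4 CPM (9.44 to 11.4) in PBS, a ratio of 1.35 (1.18 to 1.56). Neither passed 1.5-fold. Prdx1 (ENSMUSG00000028691, chromosome 4, 116685544 to 116700822, plus strand), the abundant cytosolic peroxiredoxin that removes peroxide and is reduced by thioredoxin, had 1089 CPM in NaIO3 (1077 to 1102) and 1089 CPM in PBS (1079 to 1098), a ratio of 1.0 (0.986 to 1.02). With 98.3% of thinned NaIO3 RPE cells and 98.5% of thinned PBS RPE cells carrying a UMI, Prdx1 was seen in nearly every RPE cell. Annotated copies of Prdx1 with up to 98.3% identity, Gm21399 the closest, have no row in the matrices.

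Across the other classes Prdx1 was highest in macrophages, at 2203 CPM (2166 to 2240) in NaIO3 and 2025 CPM (1899 to 2156) in PBS, and lowest in rods, at 353 CPM (279 to 441) in NaIO3 and 266 CPM (213 to 328) in PBS. Fibroblasts had 1439 CPM of Prdx1 (1284 to 1608) in NaIO3 and 1011 CPM (943 to 1083) in PBS, a ratio of 1.42. Matrix-gene cells of NaIO3 had 1704 CPM of Prdx1 (1669 to 1740), 55.1 CPM of Txnrd1 (48.9 to 61.9) and 23.7 CPM of Srxn1 (19.7 to 28.3), which placed them first for Txnrd1 and Srxn1 in that library, with the Srxn1 interval overlapping those of fibroblasts and surface epithelium. In the order of Srxn1 levels the intervals of neighbouring classes overlapped in both libraries, while in NaIO3 matrix-gene cells lay clear of RPE cells (12.7 to 15.5) and macrophages (9.55 to 15.2). Txnrd1 in surface epithelium was 16.0 CPM (13.4 to 19.1) in NaIO3 and 111 CPM (91.4 to 135) in PBS, a ratio of 0.144 (0.110 to 0.188). That PBS level sat in few cells. In the 14 PBS surface cells high in the cornified-layer genes Lce3a, Crct1 and Cnfn, Txnrd1 reached 535 CPM (431 to 657, 91 of the 108 UMIs), against 21.3 CPM (12.4 to 34.1) in the other 62. The 94 NaIO3 surface cells past the same gate had 25.5 CPM (16.3 to 37.9), and the other 589 had 14.7 CPM (12.0 to 17.9). Lce3a itself differed within that gate, at 2188 CPM in NaIO3 and 18061 CPM in PBS, so the gated cells of the libraries were not alike.

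In the other classes the 9 genes were read against all genes of the same class. In macrophages 3 of 9 were higher by 1.5-fold or more (Hmox1, and Gclc and Slc7a11 against 2 and 1 PBS UMIs), where 17.1% of 10335 genes were, and 1 was lower (Srxn1, 12.1 CPM in NaIO3 and 20.9 CPM in PBS), where 29.3% of genes were. In surface epithelium 4 of 8 were higher (Hmox1, Nqo1, Gclc and Gsr), where 31.5% of 10975 genes were, and 1 was lower (Txnrd1), where 10.1% were. In fibroblasts 1 of 7 was higher (Nqo1), where 18.1% of 6424 genes were, and 2 were lower (Gclc and Gclm), where 15.2% were. The intervals of the ratios included 1 for Slc7a11 and Srxn1 in macrophages and for Nqo1 and Gclc in fibroblasts. Counting error alone thus leaves the direction of those calls open. For the other genes named as higher or lower in these classes the interval excluded 1. In rods 1 of the 2 genes measured was higher, Gsr at 64.2 CPM (35.1 to 108, 14 UMIs) in 24 NaIO3 cells and 21.6 CPM (8.70 to 44.6, 7 UMIs) in 62 PBS cells (ratio 2.97, 1.12 to 8.68), where 15.7% of 4112 genes were higher, and 0 were lower, where 9.07% were. Depth differed between the libraries within these classes, with median UMIs of 11442.5 in NaIO3 and 4150 in PBS for macrophages.

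Within the RPE gate the genes varied with how much of the cell's RNA was RPE marker RNA. Cells of each library were ranked by RPE marker share and split into terciles of 753 NaIO3 and 1161 PBS cells. Over all gated cells most of that share was Ttr (59854 of 82809 CPM in NaIO3 and 93576 of 118961 CPM in PBS). The split is thus largely one by Ttr. Hmox1 was 52.5 CPM (46.7 to 58.8) in the lowest and 19.5 CPM (17.2 to 22.1) in the highest tercile of NaIO3, while in PBS it was 10.6 CPM and 8.35 CPM. Gsr was 110 and 63.4 CPM in the lowest and highest tercile of NaIO3, and 46.6 and 42.3 CPM in PBS. In NaIO3 both genes had their highest level in RPE cells with the least RPE marker RNA, and in PBS they were nearly flat. The terciles covered different marker levels, however. RPE markers summed to 40545 CPM in the lowest, 66996 CPM in the middle and 111500 CPM in the highest tercile of NaIO3. In PBS the markers summed to 82022 CPM in the lowest and 146037 CPM in the highest tercile. No PBS tercile was thus as low as the lowest or middle of NaIO3, and the slopes do not compare the libraries over like cells. Gclc was 45.9 and 22.7 CPM in the lowest and highest tercile of NaIO3, and 33.3 and 19.0 CPM in PBS, and so followed the same order in both libraries. Prdx1 ran the other way in both, with 779 and 1335 CPM in NaIO3 and 782 and 1262 CPM in PBS. Gclm and Nqo1 varied less. The lowest NaIO3 tercile also had a median of 16.0% mitochondrial counts, 6645 UMIs per cell and 2358 CPM of macrophage markers, against 8.62%, 14865 UMIs and 1455 CPM in the highest. The corresponding PBS values were 10.9%, 8540 UMIs and 254 CPM in the lowest tercile, and 6.91%, 13356 UMIs and 206 CPM in the highest. The part of these in the gradients was not tested.

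**Figure D3:**
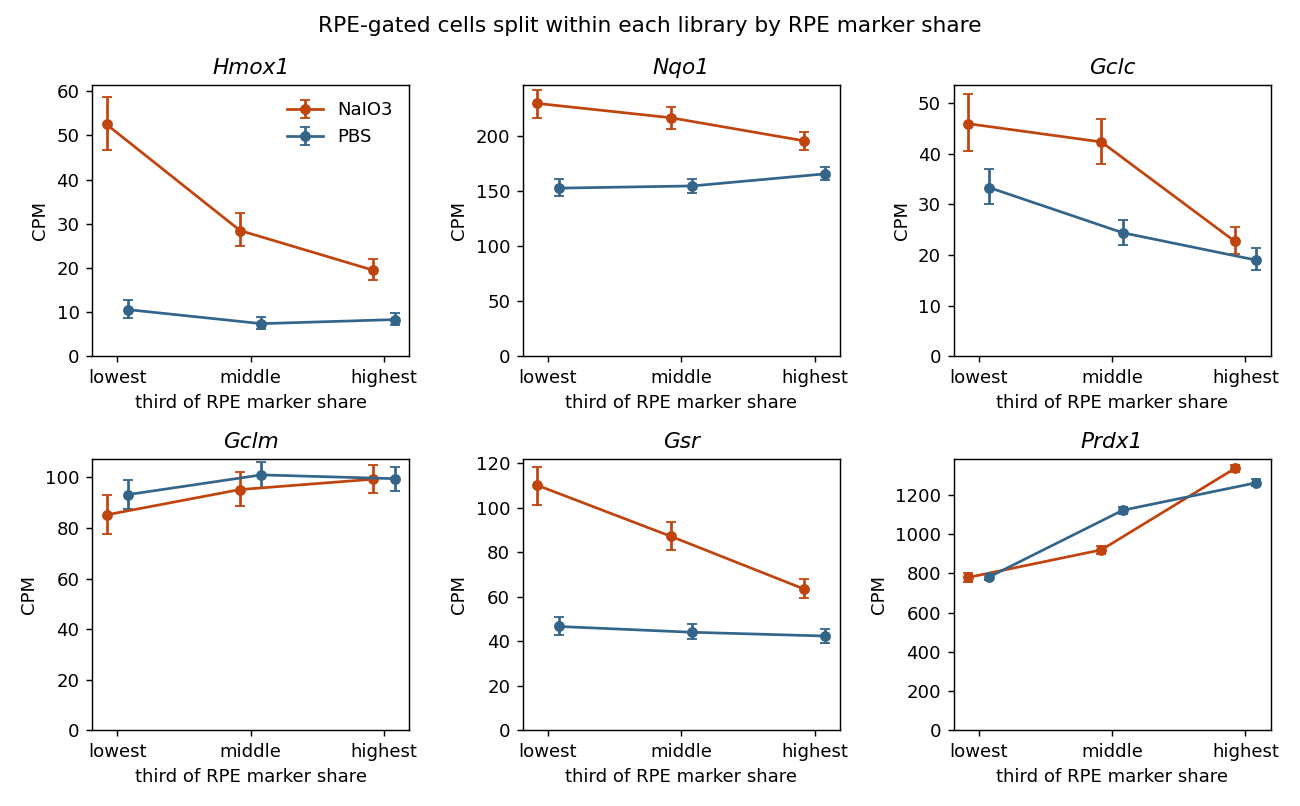
Level of 6 of the genes in CPM (with exact Poisson 95% intervals) in RPE-gated cells split within each library into terciles of RPE marker share, lowest to highest. Most of that share, over all gated cells, was Ttr. Hmox1 and Gsr fall steeply across the NaIO3 terciles and little across the PBS terciles, while Prdx1 climbs in both libraries. The terciles cover lower marker levels in NaIO3 than in PBS, so the slopes do not compare the libraries over like cells.

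Since NaIO3 RPE cells carried less marker RNA, mainly less Ttr, the libraries were also compared among cells within a set window of marker share. These had 500 to 1000 marker UMIs per 10000 (1032 NaIO3 and 1073 PBS cells), a share dominated by Ttr. Cells were not matched inside the window. The Hmox1 ratio there was 2.45 and the Gsr ratio 1.78, both still past 1.5-fold. The Prdx1 ratio was 1.29 in these cells, higher than the 1.0 found over all RPE cells, and the Gclc ratio 1.18. Among cells with at most 10% mitochondrial counts the ratios were 2.78 for Hmox1, 1.65 for Gsr, 1.13 for Prdx1 and 1.04 for Gclm. Hmox1 and Gsr were past 1.5-fold under all 15 other settings, and Nqo1, Gclc, Txnrd1 and Srxn1 stayed between 1 and 1.5 under all 15.

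**Figure D4:**
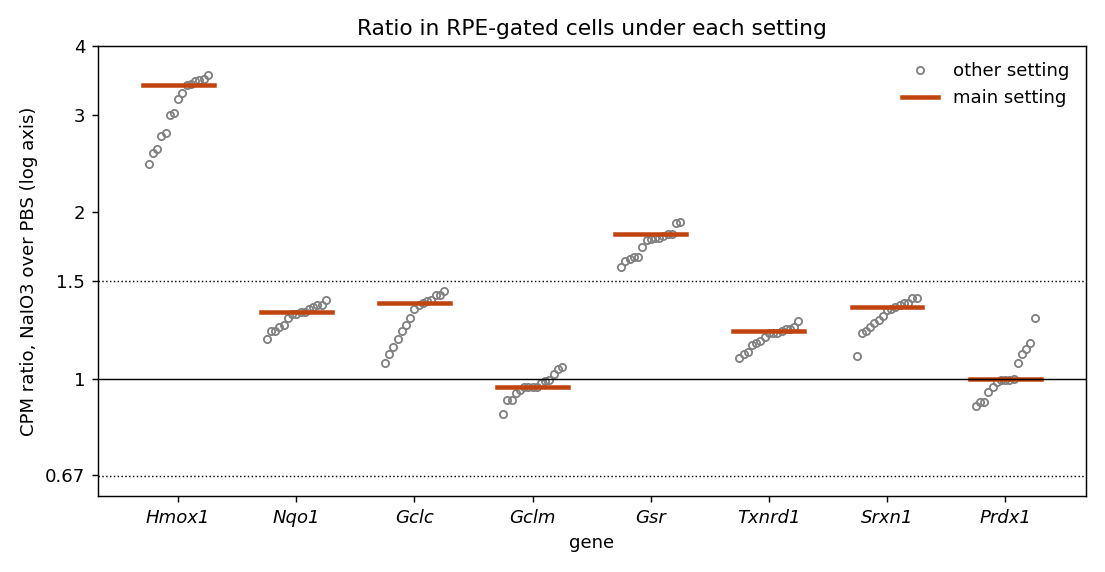
Ratio of CPM in RPE-gated cells, NaIO3 over PBS, for the 8 genes that reached 20 summed counts, on a log axis. The bar is the ratio as reported and the circles are 15 other settings; dotted lines mark 1.5-fold either way, and Hmox1 (2.45 to 3.55) and Gsr (1.59 to 1.92) lie above the upper line throughout.

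RPE cells were further split by pigment genes and by interferon genes. In the tercile with the highest share of melanin genes, Nqo1 was 223 CPM against 196 CPM in the lowest tercile of NaIO3, and 182 against 144 CPM in PBS. Gclc showed the same order, with 39.5 against 27.9 CPM in NaIO3 and 28.6 against 21.7 CPM in PBS, and Hmox1 a weaker one (31.9 against 26.6 CPM in NaIO3, and 9.89 against 8.40 CPM in PBS). Gsr was slightly lower in pigment-rich cells, with 75.2 against 81.9 CPM in NaIO3 and 39.1 against 43.5 CPM in PBS. For both Hmox1 and Gsr the intervals of the lowest and highest tercile overlapped in each library. The middle tercile had the most Gsr (84.0 CPM in NaIO3 and 48.7 CPM in PBS) and, in PBS, the least Hmox1 (7.75 CPM). The 100 NaIO3 RPE cells high in interferon genes had 48.0 CPM of Hmox1, against 28.3 CPM in the other 2159, and without them the Hmox1 ratio to PBS was 3.29. Of the 609 NaIO3 RPE cells with a Hmox1 UMI, 480 had a single one, as had 333 of the 351 in PBS. In cells with a Hmox1 UMI against cells without, Gsr was 81.2 against 80.1 CPM in NaIO3 and 44.9 against 43.9 CPM in PBS, and Nqo1 204 against 212 CPM in NaIO3 and 163 against 158 CPM in PBS, with overlapping intervals. Prdx1 was higher in NaIO3 cells with a Hmox1 UMI, at 1175 CPM (1152 to 1198) against 1050 CPM (1035 to 1064). In PBS it was at 1119 CPM (1090 to 1148) against 1085 CPM (1074 to 1095), with overlapping intervals. Cells with a Hmox1 UMI also had a higher median depth than cells without in both libraries. Prdx1 itself rose from 738 CPM in the lowest to 1275 CPM in the highest tercile of total UMIs in NaIO3. In PBS it rose from 903 to 1147 CPM. Over the same terciles of NaIO3, Gsr fell from 99.1 to 74.8 CPM and Nqo1 from 234 to 192 CPM. In PBS Gsr was 46.0 CPM in the lowest and 44.4 CPM in the highest, and Nqo1 174 and 152 CPM. The part of depth in the Prdx1 difference, and in the like levels of Gsr and Nqo1 with and without a Hmox1 UMI, was not tested. In the 28 NaIO3 cells with 3 or more Hmox1 UMIs Txnrd1 was 109 CPM (83.2 to 140), with 32 of its 60 UMIs from 1 cell.

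The wider pathway was read from 82 further genes in 7 lists, of which 81 had a row and 78 reached 20 summed counts in RPE cells. Of the 78, 22 were higher by 1.5-fold or more and 1 was lower, beside 23.2% of all genes higher and 6.75% lower, with a median log2 ratio of 0.24, beside 0.18 over all genes. Free RNA of broken cells can reach every droplet. For an estimate, every macrophage and surface epithelium marker count in RPE cells was taken as free RNA with the mean profile of the library. Free RNA would then make up 18.9% of RPE counts in NaIO3 and 24.4% in PBS. RPE markers in macrophages and surface epithelium were at 10.9% and 9.03% of their RPE level in PBS, below 24.4%. In NaIO3 they were at 8.02% and 8.80%, below 18.9%. Their level in the mean profile is lower than in RPE cells, more so in NaIO3, so these shares compare only roughly. The estimate may thus be too high, above all in PBS. How the ratios below depend on its size was not tested. The estimate, extended to the lists after values were seen, came to 100% of the RPE counts of Gsto1 (876 CPM in NaIO3 and 166 CPM in PBS) and of Aldh3a1 (113 CPM in NaIO3 and 11.3 CPM in PBS, itself 1 of the markers used) in both libraries, and to over 50% of the NaIO3 count for 5 more of the 22 genes, Maff, Ggt5, Chac1, Gpx3 and Prdx4. With the estimate taken off, 17 of the 22 were still past 1.5-fold, and the other 5, Maff, Ggt5, Chac1, Gsto1 and Aldh3a1, no longer reached 20 counts. It also moved 6 genes past the fold that had not been, Ggt1, Cth and Sod1 to higher and Gstp1, Txn1 and Pir to lower, and brought Gsta4 to a ratio of 0.863. Among the 9 genes described here it came to between 12.7% (Nqo1) and 31.4% (Hmox1) of the NaIO3 count for the 8 that were measured, and the Hmox1 and Gsr ratios without it were 3.0 and 1.79.

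Among the 10 genes that control NRF2, Nfe2l2, which encodes NRF2 itself, was the only list gene lower by 1.5-fold or more, at 24.5 CPM in NaIO3 and 39.7 CPM in PBS (ratio 0.617, 0.563 to 0.675). Keap1, its inhibitor, had 34.8 CPM in NaIO3 and 30.6 CPM in PBS (ratio 1.14). Mafk, a small MAF partner, was 6.44 CPM in NaIO3 and 2.30 CPM in PBS (ratio 2.80, 2.18 to 3.62), and 2.31 with free RNA taken off. Maff, another small MAF gene, had 3.24 CPM in NaIO3 and 0.813 CPM in PBS (ratio 3.98), of which free RNA could be 80.9% in NaIO3 and 92.9% in PBS. Rbx1, a subunit of the ligase that marks NRF2 for degradation and the highest gene of this list, had 395 CPM in NaIO3 and 417 CPM in PBS.

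Of the 13 measured genes of the glutathione cycle, 4 were higher and none lower by the same fold (all genes, 23.2% and 6.75%). For 3 of these 4 (Gpx3, Ggt5 and Chac1) free RNA could be over 50% of the NaIO3 count. Gpx3, the secreted glutathione peroxidase, had 30.7 CPM in NaIO3 and 2.65 CPM in PBS (ratio 11.6, 9.52 to 14.2), with a free RNA estimate of 66.5% in NaIO3 and 85.6% in PBS. With that taken off, 12.6 CPM in NaIO3 and 0.503 CPM in PBS were left (ratio 24.4). The PBS remainder is a small part of 114 UMIs and depends on an estimate that may be too high. How far this raises the ratio was not tested. The other was Gss, glutathione synthetase, which carries out the final step of synthesis, at 23.5 CPM in NaIO3 and 9.73 CPM in PBS (ratio 2.42, 2.13 to 2.74, and 2.17 with free RNA taken off). Gpx4, the lipid peroxidase that uses glutathione, was the highest of the list and had 6104 CPM in NaIO3 and 6545 CPM in PBS (ratio 0.933). Of the 14 measured glutathione S-transferases, which attach glutathione to electrophiles, 3 were higher (Gsta3, Gstm2 and Gsto1) and none lower, near the 23.2% and 6.75% of all genes, with a median log2 ratio of 0.05. Gsta3 had 28.2 CPM in NaIO3 and 8.82 CPM in PBS (ratio 3.19, 2.82 to 3.62, and 2.41 with free RNA taken off), and Gstm2 6.51 CPM in NaIO3 and 4.20 CPM in PBS (ratio 1.55). Gsta4, the highest of this list, had 552 CPM in NaIO3 and 409 CPM in PBS and did not pass.

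NADPH, the electron source for Gsr and Txnrd1, comes from the pentose phosphate pathway and a few other enzymes. Of its 7 genes 3 were higher by 1.5-fold or more and none lower, where 23.2% and 6.75% of all genes were: G6pdx, the first enzyme of that pathway, at 40.1 CPM in NaIO3 and 22.0 CPM in PBS (ratio 1.82, 1.67 to 1.99), Pgd, which carries out its other NADPH-yielding step, at 68.8 and 35.2 CPM in NaIO3 and PBS (ratio 1.96, 1.83 to 2.10), and Tkt, transketolase, at 168 and 85.9 CPM (ratio 1.96, 1.88 to 2.05). With free RNA taken off their ratios were 1.73, 1.87 and 1.88. Taldo1 (623 against 616 CPM) and Me1 (191 against 191 CPM) had ratios of 1.01 and 1.0.

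Of the 13 thioredoxin and peroxiredoxin genes, 5 were higher and none lower (all genes, 23.2% and 6.75%), and besides Txnip and Prdx4 (25.9 against 13.7 and 12.1 against 5.25 CPM, ratios 1.88 and 2.30) these were Txnrd2, the mitochondrial thioredoxin reductase (9.01 against 5.80 CPM, ratio 1.55), Prdx6, a peroxiredoxin that uses glutathione (363 against 236 CPM, ratio 1.53), and Sesn2, sestrin 2 (13.8 against 7.29 CPM, ratio 1.89). Prdx2, the highest of that list, had 413 CPM in NaIO3 and 411 CPM in PBS. Of the 17 other NRF2 targets, 4 were higher and none lower, again near the 23.2% of all genes that were higher: Osgin1 (15.2 against 8.73 CPM, ratio 1.74), Ephx1, microsomal epoxide hydrolase (131 against 68.2 CPM, ratio 1.92), Ugdh, which makes UDP-glucuronate (72.6 against 47.3 CPM, ratio 1.54), and Aldh3a1. The ferritin chains Ftl1 (4276 against 4362 CPM) and Fth1 (2412 against 3224 CPM, ratio 0.748), which store iron such as that freed by Hmox1, did not pass the fold. Of the 4 genes for superoxide and peroxide removal only Sod3 (13.0 against 7.59 CPM, ratio 1.72) was higher and none lower by that fold. This is near the 23.2% and 6.75% of all genes. Sod1 (394 against 264 CPM) and Cat (399 against 307 CPM) had ratios of 1.49 and 1.30. In each of these pairs NaIO3 stands before PBS.

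**Figure D5:**
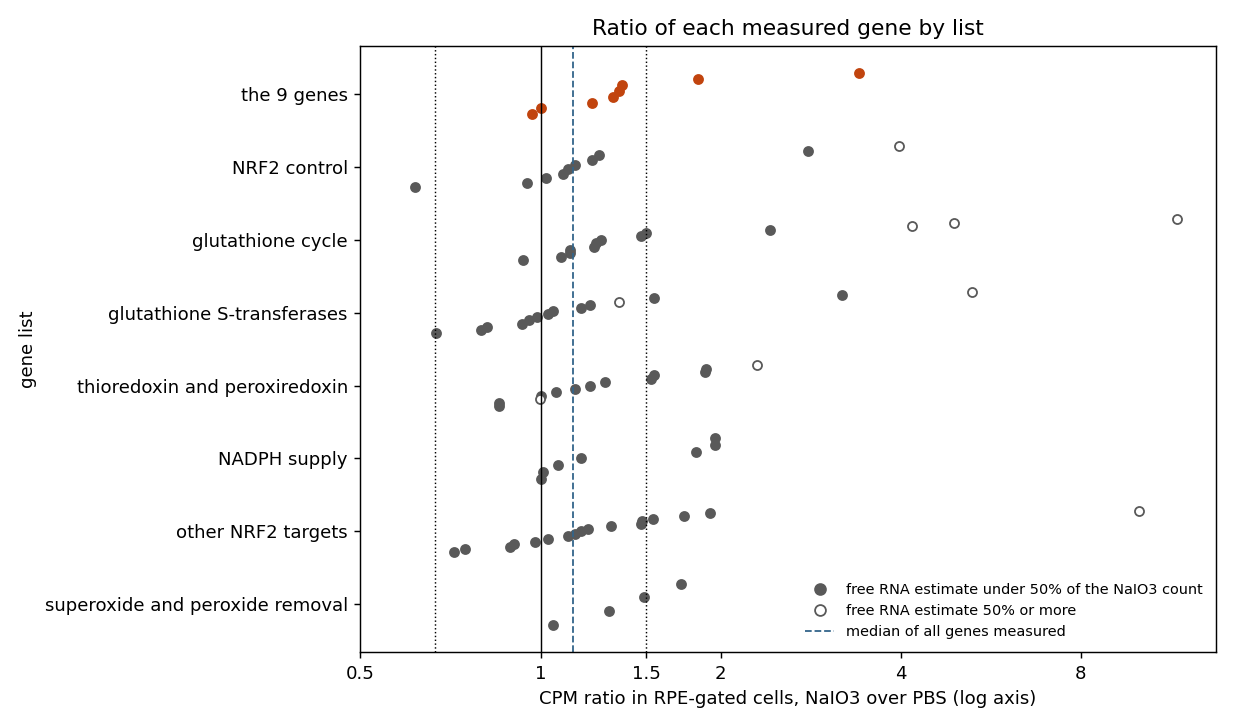
Ratio of CPM in RPE-gated cells, NaIO3 over PBS, on a log axis for each gene with a summed count of at least 20, by list, with the genes described here in red at the top. Open points are genes for which the free RNA estimate is 50% or more of the NaIO3 count, dotted lines mark 1.5-fold, and the dashed line is the median of all genes (0.18 on the log2 scale); the widest ratios, Gpx3 at 11.6 and Aldh3a1 at 10.0, are open points.

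The genes most like each member were sought by Pearson's r of log2(CPM + 5) over 14 groups of class and library, which share free RNA within a library. The 3 highest of 10898 genes are named for each, a choice that favours high r over so few groups. Some groups also held few UMIs, such as 2 of Gclc in PBS macrophages and 1 of Srxn1 in PBS mural cells. Hmox1 was most like Sgpl1 (0.94), Hexa (0.93) and Sdf2l1 (0.91), and Nqo1 like Col8a2 (0.91), Ptges (0.89) and Gabrb1 (0.88). Gclc was most like Nfs1 (0.96), Orc3 (0.89) and Alg2 (0.87), whereas its partner Gclm was most like Nosip and Asah2 (both 0.88) and Cdc25a (0.85), with no gene in common. Gsr was most like Slc16a4 (0.89), Vps41 and Psmd1 (both 0.88), and Prdx1 like Lamp2 (0.96), Bst2 and Rcbtb2 (both 0.94). Srxn1 reached 0.86 with Lig3 and 0.77 with Eya3 and Nsun3, and Txnrd1 no more than 0.74 with Maea, 0.73 with Dcaf12 and 0.72 with Fer. Slc7a11 did not pass the count filter, and its nearest genes, Synpr (0.92), Sphk1 and Agt (both 0.91), rest on few UMIs.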

How the data were processed

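The authors deposited unnormalised UMI counts for every gene in every barcode, made with Cell Ranger 3.0.2 on build mm10, per the submitters' processing notes; annotation release, strand setting and cell calling are not stated there. Barcodes under 500 genes or over 25% mitochondrial counts were removed (114 NaIO3 and 231 PBS), as were the highest Scrublet scores (scanpy 1.11.5) at 0.8% per 1000 cells (124 NaIO3 and 154 PBS). A cell joined a class when the class's markers reached a set share of its counts (250 per 10000 for RPE, 100 for macrophages and surface epithelium); cells passing several gates were left out. Counts were summed per class and library as CPM, with exact Poisson intervals for levels, conditional binomial intervals for ratios and Clopper-Pearson intervals for shares. Calls used a summed count of at least 20, a pseudocount of 0.5 and 1.5-fold. Named list genes were those past that fold with at least 100 counts and the 1 or 2 genes with the highest count in each list; Keap1, Ggt5 and Chac1, the matrix, interferon and cornified gene gates, the terciles of RPE cells and the free RNA estimate for list genes were added after values were seen. Coordinates come from GENCODE M21 (27645 of 27998 IDs matched). Scripts were tested on simulated data. The members and lists were chosen with earlier results of these data known.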

Additional observations from a re-analysis of the deposited data

Results flagged for a closer look

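Txnrd1 differed in direction between classes: its ratio, NaIO3 over PBS, was 0.144 (0.110 to 0.188) in surface epithelium and 1.22 in RPE cells. The difference between the classes was not tested, since each group has 1 library. The PBS level in surface epithelium rests on 10 cells with 4 or more Txnrd1 UMIs, which hold 89 of its 108 UMIs, and 2 NaIO3 surface cells reached that number. In the cells high in cornified-layer genes Chac1, a glutathione-degrading enzyme, was at 224 CPM in NaIO3 and 752 CPM in PBS.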

How the results depend on the processing

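Over 15 other settings no ratio changed side of the fold: Hmox1 ranged from 2.45 to 3.55, Gsr from 1.59 to 1.92, Nqo1 from 1.18 to 1.39, Gclc from 1.07 to 1.44, Srxn1 from 1.10 to 1.40 and Txnrd1 from 1.09 to 1.27. Gclm (0.863 to 1.05) and Prdx1 (0.894 to 1.29) fell on both sides of 1, lowest when scaled by the median ratio over genes. With a ratio of 2 as the threshold 1 of the 8 genes was higher, with 11.9% of all genes higher and 2.66% lower. The share of genes lower was 10.5% when scaled by the median ratio and 4.27% with a summed count of at least 100. Restriction to the tercile of lowest macrophage marker share, low rod genes, 5% to 10% mitochondrial counts or a marker share of 500 to 1000 was chosen after seeing the data. No paired analysis was possible because each group has 1 library. Slc7a11 gave few UMIs in RPE cells despite the depth of that class, and few cells limit the genes in the smaller classes.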

Other observations

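A single NaIO3 cell inside the RPE gate held the most UMIs of both Hmox1 (19, against 5 in the next cell) and Txnrd1 (32, against 5 in the next cell). It had 46944 UMIs, 396 RPE marker UMIs per 10000, 12.4 macrophage and 12.4 surface epithelium marker UMIs per 10000, and 4.52% mitochondrial counts. Its other counts were 4 of Srxn1, 8 of Gclm, 3 of Gclc, 3 of Nqo1, 5 of Gsr and 88 of Prdx1, and none of Slc7a11. Without the highest cell of each library the Txnrd1 ratio was 1.18 and the Hmox1 ratio 3.35.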
